A study of Mus musculus with 2 samples.

Results

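The Atp8 phospholipid flippases and their Tmem30 partner subunits were examined in round spermatids of the mouse, which are haploid germ cells at the start of their change into sperm. The set holds 10 genes, chosen by symbol out of 23234 in the table: Atp8a1, Atp8a2, Atp8b1, Atp8b2, Atp8b3, Atp8b4, Atp8b5, Tmem30a, Tmem30b and Tmem30c. All 10 were present. RNA-seq was made from C57BL/6 mice that were wild type and from C57BL/6 mice labelled Epc-dKO, which are deficient for both Epc1 and Epc2, whose products belong to the TIP60 histone acetyltransferase complex. The sources used here do not say how the deficiency was made, how old the mice were or how many were pooled. Each genotype has 1 library, so no difference below has a replicate check and none was tested. The genes were chosen with their levels already known, and their values are given as a description.

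Flippases are P4-ATPases, membrane pumps that use ATP to move phospholipids such as phosphatidylserine and phosphatidylethanolamine from the outer to the cytosolic leaflet of a membrane. Most of them leave the endoplasmic reticulum and work only when bound to a CDC50 protein, encoded by a Tmem30 gene. Atp9a and Atp9b are known to need no such partner. In the male germ line the asymmetry they maintain is a feature of the plasma membrane and of the acrosome, the secretory vesicle over the sperm nucleus, and Atp8b3 and Atp8b5 are known as testis flippases.

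The levels are FPKM, in which a gene's fragments are divided by its transcript length and by the size of the library, a scale that allows genes of different length to be compared within a library. FPKM summed to 193611 over all genes in the wild-type library and to 198081 in the other. The lowest values lay on steps. Over genes with 1 annotated transcript of 500 to 6000 nt, the commonest step was that of 1 fragment in a library of about 32900000 fragments for the wild type (143 genes) and 36200000 for Epc-dKO (136 genes), and 93 and 99 genes lay at 2 fragments. These depths set the approximate fragment numbers quoted below, which assume the longest annotated coding transcript. Changes are given as the log2 ratio of (FPKM + 1), Epc-dKO library over wild-type library, and a gene with a mean FPKM of at least 1 over both libraries is called expressed. The 2-fold rule used below counts an expressed gene as higher or lower if this log2 ratio is 1 or more, or -1 or less, and it understates changes of low genes. The targeted genes were not lower under the Epc-dKO label: Epc1 had an FPKM of 11.4 and 13.6, and Epc2 had 7.12 and 10.5, in wild type and Epc-dKO. Values of a whole gene include exons outside a deleted part and do not check the label.

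All 14 spermatid markers were expressed, and their summed FPKM was 1772 in wild type and 2985 in the Epc-dKO library. Of these 14, 5 were higher and 0 lower, with a median log2 ratio of 0.51. Over all expressed genes, 2.75% were counted higher and 1.88% lower. Prm2, for protamine 2, had the largest log2 ratio of the 14, with 82.8 in wild type and 675 in Epc-dKO. A log2 ratio above 0 was found for 12 of the 14 and one below 0 for 2, with Spaca1 lowest at -0.42. Markers of spermatogonia were lower in sum, 39.7 against 19.1, with 9 of 12 expressed, 2 counted lower and a median of -0.75. The 12 spermatocyte markers summed to 349 and 359, with 1 lower and a median of -0.11. Sertoli cell markers (13 of 14 in the table, 3 expressed, median -0.51) summed to 16.1 and 10.03, and Leydig cell markers (7 of 8, 1 lower, median -0.03) to 32.5 and 25.05. Peritubular markers (4 of 6, 1 higher, median -0.46) summed to 26.7 and 42.7. The higher sum rests on Actg2, with 15.3 in wild type and 36.2 in Epc-dKO, and the other 3 expressed had a log2 ratio below 0. Of 11 blood and immune markers 1 was expressed (Vwf, log2 ratio -0.12), the sums were 6.07 and 6.34, and Hbb-b1 and Hba-a1 were listed at 0 in both. In such bulk RNA, fewer cells of a type and less RNA per cell cannot be told apart.

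The 7 Atp8 proteins share the phosphorylation signature of P-type ATPases, whose aspartate takes up phosphate from ATP in each transport cycle. The GENCODE M21 coding sequence of each of the 7 genes held exactly 1 in-frame match to it. The stretches below, each 45 nt long, are shown because they carry the step common to all of these pumps, and because the genes that encode it run from the highest level reported here to nearly the lowest. Capitals mark the 15 nt of the signature, and the order is the testis flippases first.
Atp8b3: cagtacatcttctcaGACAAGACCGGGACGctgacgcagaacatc
Atp8b5: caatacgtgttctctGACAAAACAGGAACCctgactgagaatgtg
Atp8b2: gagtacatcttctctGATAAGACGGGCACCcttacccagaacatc
Atp8b4: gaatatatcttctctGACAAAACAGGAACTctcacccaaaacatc
Atp8a2: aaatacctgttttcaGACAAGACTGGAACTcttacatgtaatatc
Atp8a1: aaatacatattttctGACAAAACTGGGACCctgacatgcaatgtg
The 15 capital bases of the other 6 genes, Atp8b1 included, differed from those of Atp8b3 at 3 or 4 positions. Over the 45 bases the differences from Atp8b3 numbered 8 in Atp8b1 and Atp8b2, 11 in Atp8b4, 13 in Atp8b5, 14 in Atp8a2 and 15 in Atp8a1. Over whole coding sequences, Atp8b3 matched Atp8b1 at 60.9% of aligned bases, Atp8b2 at 60.3%, Atp8b5 at 59.5%, Atp8b4 at 58.0%, Atp8a1 at 57.4% and Atp8a2 at 56.3%. The closest pair was Atp8b2 and Atp8b4, with 68.2%. None of the 50-base words in the longest-coding transcripts of Atp8b2, Atp8b3, Atp8b4, Atp8b5, Tmem30a and Tmem30b occurred in a transcript of any other gene on either strand.

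Atp8b3 dominated the group in both libraries. It had an FPKM of 921 in wild type and 821 in Epc-dKO, which made it the third and the fifth highest gene of the table, or, with small RNA genes left out of the ranking, number 2 and number 4. About 134000 fragments in wild type and 131000 in Epc-dKO lie behind these values. The log2 ratio was -0.17, a small shift towards a lower level, with a counting error (SE) of 0.0056 that leaves out any variation between animals. Among 20 expressed genes with a mean FPKM within 2-fold of that of Atp8b3, 70.0% were at least as far from 0. Atp8b3 took 97.0% of the FPKM summed over the 7 Atp8 genes in wild type and 95.9% in Epc-dKO. With the 7 other P4-ATPase genes reported here added, its share of the sum was 85.8% and 84.7%. Its level was 61.3 times that of Atp8a2, the next Atp8 gene, in wild type and 43.1 times in Epc-dKO.

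The genes whose pair of values lay nearest to those of Atp8b3, by distance on the log2(FPKM + 1) scale over the 2 libraries, were Odf2, Ubb and Eef2. Odf2, for an outer dense fibre protein of the sperm tail, had 904 and 1014 (distance 0.31). Ubb, a polyubiquitin gene, had 893 and 658 (0.32), and Eef2, for a translation elongation factor, had 785 and 689 (0.34). A distance over 2 libraries is a description of level and little more.

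**Figure D1:**
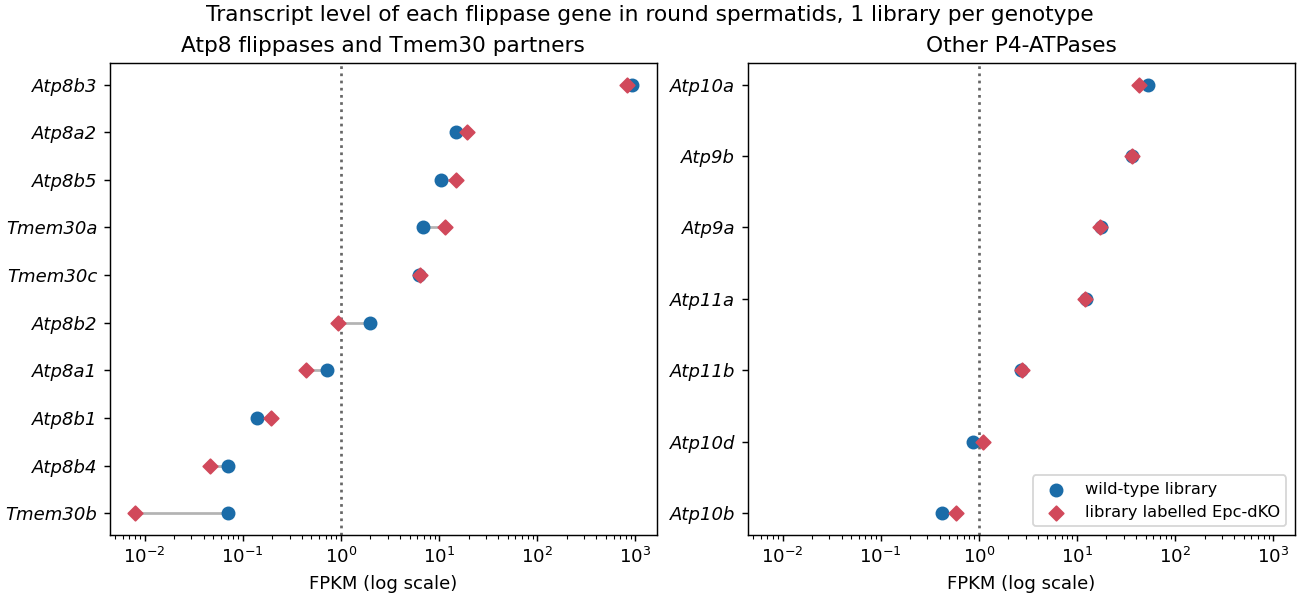
FPKM (log axis) of the 10 genes (left) and of 7 other P4-ATPase genes (right), with circles for the wild-type library, diamonds for the library labelled Epc-dKO, a grey line joining them and a dotted line at an FPKM of 1; each point is 1 library. Atp8b3 stands at 921 and 821, no other gene of either panel lies above 53.4, and Tmem30b has the lowest value.

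The promoter of Atp8b3 is printed because the gene had the highest level in the group, and that of Tmem30a because it was the partner gene with the largest log2 ratio. Both are annotated starts, and which starts the cells used was not measured. Both run from 250 bases before to 50 bases after the start in RefSeq on GRCm38.p6, both lie on the minus strand, and both are written 5′ to 3′ along the gene. Atp8b3 is at chr10:80539075-80539374 and Tmem30a at chr9:79793381-79793680. Capitals mark matches to any of 6 motifs, searched on both strands and spelled out after the sequences.
Atp8b3: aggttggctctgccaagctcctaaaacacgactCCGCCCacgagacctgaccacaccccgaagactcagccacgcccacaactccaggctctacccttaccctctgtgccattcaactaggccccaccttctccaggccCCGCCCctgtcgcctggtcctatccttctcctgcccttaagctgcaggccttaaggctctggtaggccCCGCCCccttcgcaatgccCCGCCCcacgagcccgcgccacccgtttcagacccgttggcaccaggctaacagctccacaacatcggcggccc
Tmem30a: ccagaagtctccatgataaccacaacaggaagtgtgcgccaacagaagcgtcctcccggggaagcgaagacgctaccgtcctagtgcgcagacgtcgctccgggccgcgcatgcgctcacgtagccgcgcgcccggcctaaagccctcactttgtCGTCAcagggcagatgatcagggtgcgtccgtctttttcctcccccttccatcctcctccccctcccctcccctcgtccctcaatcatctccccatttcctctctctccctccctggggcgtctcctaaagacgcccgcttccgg
The Atp8b3 window held 4 GC boxes and no match to the other 5 motifs, and the Tmem30a window held 1 CRE half-site and no other match. The GC box, GGGCGG, is a site of Sp1 factors and was held by 35.7% of 32851 promoter windows of this length. The CRE half-site, TGACG, was held by 20.8% of the windows, and it is also part of the full CRE. That full CRE, TGACGTCA, is the site of CREB and of the spermatid factor CREM, and 1.79% of the windows held it. A CCAAT box, searched by those 5 letters, was in 37.4%. The TATA box was searched as TATAAA and was in 13.6% of windows. The X-box half-site, a part of the sites of RFX factors, was searched as GTTGCC and was in 12.5% of windows. GC boxes were also present 6 times in the window of Tmem30b, the gene with the lowest level, 4 times in that of Atp8a1 and 3 times in those of Atp8b5 and Atp8b2 (both of its windows), while Atp8b4 had 0. The single CCAAT matches were in Atp8b4 and in 1 of the 2 Atp8b2 windows, and the other CRE half-site was in the other Atp8b2 window. Windows were found for 7 of the 10 genes, and those of Atp8a2, Atp8b1 and Tmem30c were not analysed here. GC content was 64.3% for Atp8b3 and 63.0% for Tmem30a, against a median of 52.7% over all windows. Such matches are letters in a window and were not tied to the levels by any measurement.

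The 2 other Atp8 genes with an FPKM above 10 were both somewhat higher in Epc-dKO. Atp8a2, a phosphatidylserine flippase known from neurons and photoreceptors, had 15.0 in wild type and 19.1 in Epc-dKO, a log2 ratio of 0.32. Atp8b5, the testis flippase also called FetA, had 10.5 and 14.9, a log2 ratio of 0.46. Neither passed the 2-fold rule. Among expressed genes with a mean FPKM within 2-fold of that of Atp8a2, 42.4% of 2589 genes were at least as far from 0, and for Atp8b5 the share was 27.2% of 2892. Values like these were therefore common at their level of expression. Together they made 2.69% of the Atp8 sum in wild type and 3.96% in Epc-dKO.

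The value of Atp8a2 carries a limit. In GENCODE M21 its exons overlap those of Nupl1, for a nucleoporin, on the same strand, and Nupl1 had an FPKM of 30.2 and 34.2. Of the 12837 words of 50 bases in its longest-coding transcript, of 12886 nt, only 9 (0.0701%) occurred in transcripts of other genes on the same strand. On the opposite strand 2017 words (15.7%) did, and the sources used here do not state the strand setting of the counting. The genes nearest to Atp8a2 in both libraries were Gabarapl1, for an autophagy protein of the Atg8 family (14.9 and 19.1, distance 0.01), Ccdc55 (15.2 and 19.2, distance 0.02) and Armc4, a gene of motile cilia (14.8 and 19.3, distance 0.03).

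Atp8b2 had the lowest log2 ratio of the set. This flippase of the plasma membrane, known to act on phosphatidylcholine, had 2.00 in wild type and 0.928 in Epc-dKO. The log2 ratio of (FPKM + 1) was -0.64 and did not pass the 2-fold rule, but without a pseudocount the wild-type level was 2.16 times the other, a log2 ratio of -1.11 with a counting SE of 0.13 from about 375 and 192 fragments. With a pseudocount of 0.1 it was -1.03 and counted as lower, where 10.4% of all expressed genes were counted (4.15% higher and 6.25% lower). At its level the change was not rare: 17.5% of 3470 expressed genes with a mean FPKM within 2-fold of it were at least as far from 0, and 12.4% were at least as low. Its lower value went in the direction of the summed spermatogonial (39.7 to 19.1), Sertoli cell (16.1 to 10.03) and Leydig cell (32.5 to 25.05) markers. The summed peritubular markers went the other way (26.7 to 42.7), though 3 of their 4 expressed genes had a log2 ratio below 0. Summed spermatid, spermatocyte and blood and immune markers were also higher in Epc-dKO. The part of any of these cells in the result was not tested.

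The remaining 3 Atp8 genes were below an FPKM of 1 in both libraries. Atp8a1, a widely expressed phosphatidylserine flippase, had 0.714 in wild type and 0.437 in Epc-dKO. Atp8b1, the flippase of the bile canaliculus whose loss causes familial cholestasis, had 0.138 and 0.196, about 31 and 48 fragments. Atp8b4 had 0.0709 and 0.0459, about 13 and 9 fragments. On the scale with a pseudocount of 1 their log2 ratios were -0.25, 0.07 and -0.03, and at these levels that scale can show little change. Atp8a1 overlaps the exons of Shisa3 on the opposite strand, and Shisa3 had 4.22 and 8.80, and reads of the 2 genes cannot be told apart there unless strand was used.

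Of the Tmem30 partner genes, Tmem30a and Tmem30c were expressed at like levels in wild type and apart in Epc-dKO. Tmem30a, for the widely expressed subunit CDC50A, had 6.78 in wild type and 11.46 in Epc-dKO, a log2 ratio of 0.68 that was the largest upward value of the set and did not pass the 2-fold rule. Tmem30c, for the testis subunit CDC50C, had 6.30 and 6.39, a log2 ratio of 0.02. The level of Tmem30a over that of Tmem30c went from 1.08 to 1.80, and its share of the Tmem30 sum from 51.6% to 64.2%. Among 3269 expressed genes with a mean FPKM within 2-fold of Tmem30a, 14.1% were at least as far from 0. Those with a log2 ratio at least as high made 6.82%. From about 816 and 1517 fragments, the Tmem30a ratio without a pseudocount was 0.76 with a counting SE of 0.06. The higher value of Tmem30a went in the direction of the summed spermatid markers (1772 to 2985). Summed peritubular (26.7 to 42.7), spermatocyte (349 to 359) and blood and immune (6.07 to 6.34) markers were higher too. Those of spermatogonia, Sertoli cells and Leydig cells were lower. In the spermatid sum Prm2 alone went from 82.8 to 675. Of the 14 spermatid markers 12 had a log2 ratio above 0, with Acrv1 at 0.04 and Tssk1 at 0.02, and 2 had one below. The part of these markers in the value of Tmem30a was not tested.

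Tmem30b, for the subunit CDC50B known from epithelia, had 0.0701 in wild type and 0.00794 in Epc-dKO, and was the lowest gene of the set. These values stand for about 7 fragments and 1 fragment, too few to give a fold, and the log2 ratio of (FPKM + 1) was -0.09. On the opposite strand, 4.83% of the 50-base words of Tmem30c lay in transcripts of an antisense gene, Gm26800, and its value depends to that extent on the strand setting. The coding sequences of the Tmem30 genes matched at 58.6% of aligned bases between Tmem30a and Tmem30b, 57.6% between Tmem30a and Tmem30c and 52.9% between Tmem30b and Tmem30c.

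Transcripts of the pumps outnumbered those of their partners in both libraries. The 14 P4-ATPase genes reported here summed to an FPKM of 1074 in wild type and 970.2 in Epc-dKO, and the 3 Tmem30 genes to 13.2 and 17.9, a ratio of 81.6 and 54.3. Most of this came from Atp8b3: without it the ratio was 11.6 and 8.33, and with Atp9a and Atp9b also left out it was 7.48 and 5.33. The other 6 Atp8 genes alone summed to 28.4 and 35.5, which was 2.16 and 1.99 times the Tmem30 sum. The ratio was lower in Epc-dKO under each of these sums, but all of them share the Tmem30 sum and are not separate results. That sum was higher in Epc-dKO through Tmem30a (6.78 and 11.46), while Tmem30c had 6.30 and 6.39. The sum of the other 6 Atp8 genes was itself higher in Epc-dKO. FPKM of transcripts says nothing of the amounts of protein.

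The order of the 10 genes by FPKM was the same in both libraries: Atp8b3, Atp8a2, Atp8b5, Tmem30a, Tmem30c, Atp8b2, Atp8a1, Atp8b1, Atp8b4 and Tmem30b. Tmem30a and Tmem30c in wild type (6.78 and 6.30), and Atp8b4 and Tmem30b in wild type (0.0709 and 0.0701), were the closest neighbours, and the second pair could not be separated at about 13 and 7 fragments. No spread between animals is at hand for the rest.

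Of the 10 genes 6 were expressed, and 0 of these 6 passed the 2-fold rule in either direction, where 4.63% of all 10438 expressed genes did (2.75% higher and 1.88% lower). With so small a set, a count of 0 lies near that background. The median log2 ratio of the 6 was 0.17, with 4 above 0 and 2 below, beside a median of -0.05 and quartiles of -0.34 and 0.24 over all expressed genes. The 4 genes not counted as expressed were Atp8a1, Atp8b1, Atp8b4 and Tmem30b. For these, and for Atp8b2, the value depended on the pseudocount, as the plot of log2 ratios by setting shows: at a pseudocount of 0.1 the log2 ratio was -0.60 for Atp8a1, 0.31 for Atp8b1, -0.23 for Atp8b4 and -0.66 for Tmem30b. Over all pseudocounts and rescalings Tmem30a lay between 0.64 and 0.75, Atp8b5 between 0.42 and 0.52, Atp8a2 between 0.28 and 0.38, and Atp8b3 between -0.21 and -0.11.

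**Figure D2:**
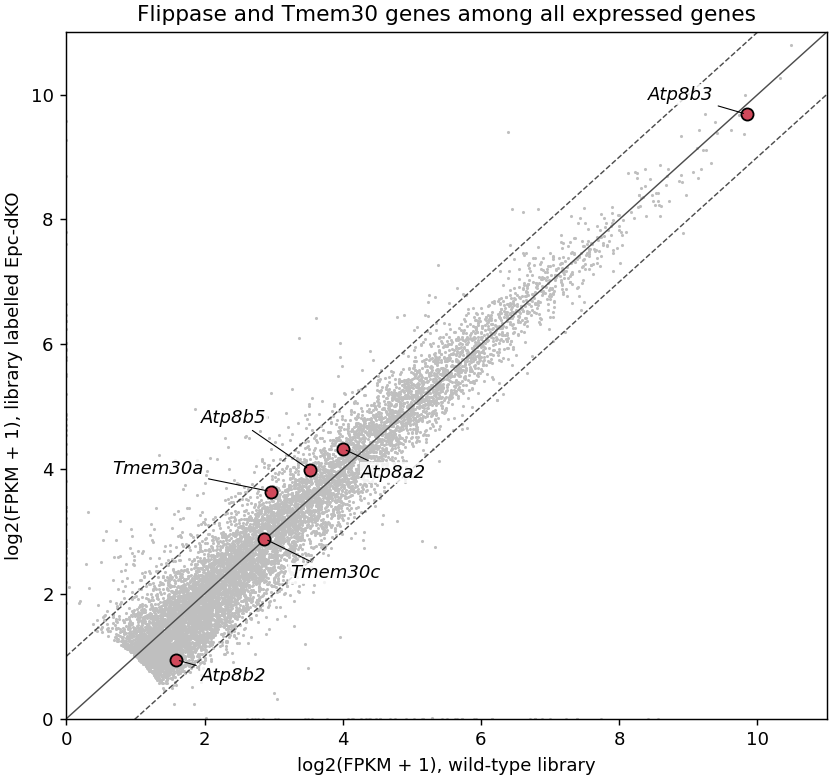
log2(FPKM + 1) in the wild-type library (horizontal) against the library labelled Epc-dKO (vertical) for the 10438 expressed genes (grey), with the 6 expressed Atp8 and Tmem30 genes in red, a solid line of equal level and dashed lines at 2-fold. All 6 lie between the dashed lines, with Tmem30a (0.68) and Atp8b2 (-0.64) farthest from the solid line.

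**Figure D3:**
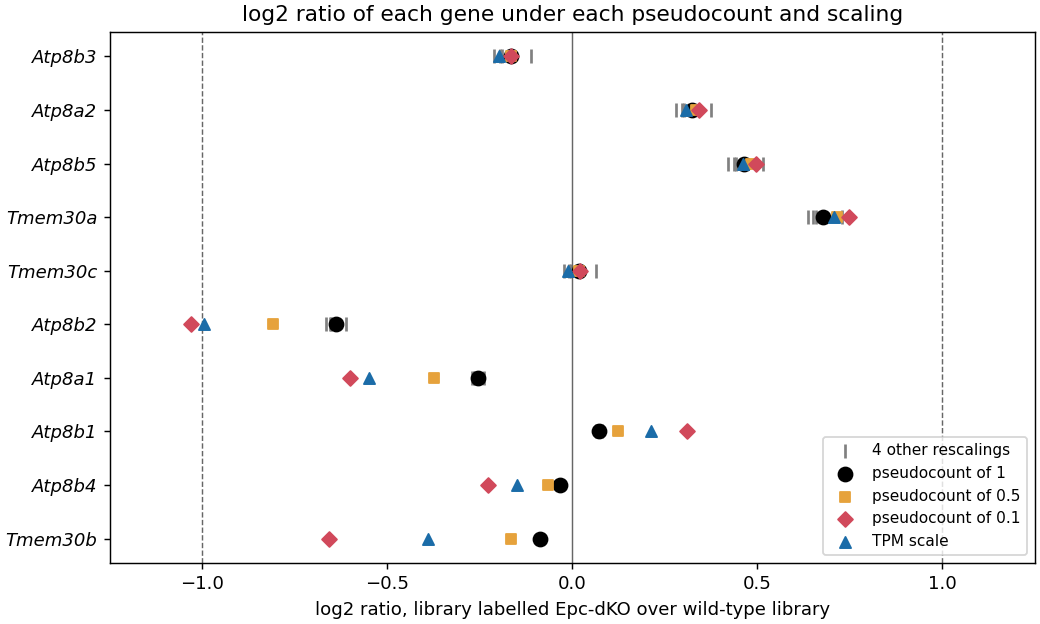
log2 ratio of each of the 10 genes, library labelled Epc-dKO over wild-type library, under 3 pseudocounts, on the TPM scale and under 4 other rescalings of the libraries; dashed lines mark 2-fold. The 5 genes with the highest levels move little, and the 5 lowest spread with the pseudocount, with Atp8b2 reaching -1.03 at a pseudocount of 0.1.

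Among the other P4-ATPases, Atp10a was somewhat lower in Epc-dKO, and the rest of those expressed held close to equal levels. Of the 7 such genes reported here 5 were expressed and 0 passed the 2-fold rule, with a median log2 ratio of -0.02 and a range from -0.30 to 0.03. Atp10a, of the class known to act on phosphatidylcholine, was the most abundant with 53.4 in wild type and 43.1 in Epc-dKO (log2 ratio -0.30). Among 1503 expressed genes with a mean FPKM within 2-fold of that of Atp10a, 41.7% were at least as far from 0. Atp9b had 36.6 and 36.1 and Atp9a had 17.4 in each, both flippases of the Golgi and endosomes. Atp11a, a phosphatidylserine flippase of the plasma membrane, had 12.5 and 12.1, and Atp11b had 2.68 and 2.76. Atp10d (0.872 and 1.11) and Atp10b (0.419 and 0.590) fell short of the expression minimum. Of the 14 pump genes, 9 had an FPKM above 2 in wild type and 8 in Epc-dKO.

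Scramblases, which let phospholipids cross a membrane in both directions and so undo the work of flippases, were also within 2-fold where expressed. Of 17 listed genes 5 were expressed, 0 passed the rule, and the median log2 ratio was 0.03. Atg9a, for the scramblase of autophagic membranes, had 70.2 in wild type and 102 in Epc-dKO (0.53). Xkr8, for the scramblase that exposes phosphatidylserine in apoptosis, had 24.2 and 24.8 (0.03), and Tmem41b, an endoplasmic reticulum scramblase gene, had 5.75 and 7.52 (0.34). The plasma membrane scramblase gene Ano6, named after its values were seen, had 0.527 and 0.724.

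The 4 expressed ABC transporters of lipids, which move lipids to the outer leaflet or out of the cell, had lower values in Epc-dKO. Of the 9 listed these 4 were expressed, all 4 had a log2 ratio below 0, 0 passed the 2-fold rule, and the median was -0.69 beside -0.05 over all expressed genes. Abca1, the cholesterol and phospholipid exporter, had 3.98 and 1.70 (-0.89), and Abcc1 had 4.13 and 1.92 (-0.81). These values went in the same direction as the summed spermatogonial, Sertoli cell and Leydig cell markers given above. The summed markers of the other cell types went the other way, and the part of any of these cells was not tested.

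Enzymes that make the flippase substrates phosphatidylserine, phosphatidylethanolamine and phosphatidylcholine were mostly within 2-fold, with values in both directions. Of 16 listed 13 were expressed, with 1 higher, 0 lower and a median log2 ratio of 0.03. Of these 13, 7 had a log2 ratio above 0 and 6 below, over a range from -0.58 to 1.08. Chpt1, for the last step of phosphatidylcholine synthesis, was the gene counted higher, with 4.24 in wild type and 10.1 in Epc-dKO (1.08). Lpcat4, a lysophospholipid acyltransferase gene, had 18.3 and 30.5 (0.71), and the related Lpcat3 had 58.5 and 59.6 (0.03). Ptdss2, for the phosphatidylserine synthase that is known to be abundant in testis, had 78.3 and 70.6 (-0.15).

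Genes for recognising and taking up cells that expose phosphatidylserine, a task of Sertoli cells in the tubule, were low. Of 15 listed 5 were expressed, 0 passed the rule, and the median log2 ratio was -0.31. Scarb1, for a scavenger receptor, had 7.98 and 11.6 (0.48), Mfge8, for a bridging protein, had 3.18 and 1.55 (-0.71), and Tyro3, for a receptor kinase, had 1.74 and 0.536 (-0.84). Timd4, for a phosphatidylserine receptor of macrophages, was listed at 0 in both libraries.

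**Figure D4:**
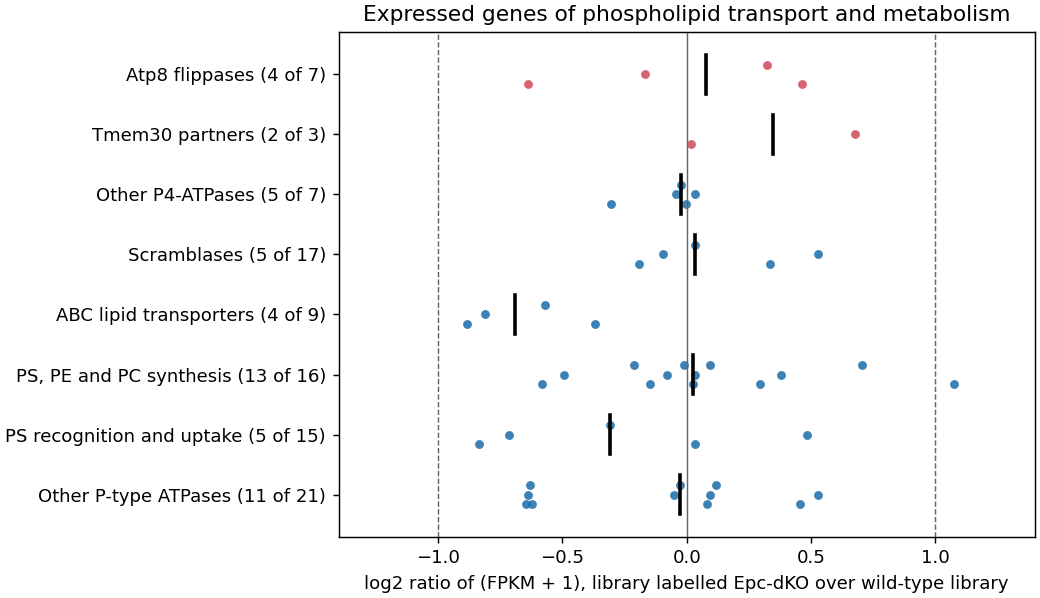
log2 ratio of (FPKM + 1), library labelled Epc-dKO over wild-type library, for the expressed genes of each list; each point is a gene, the black bar is the list's median, dashed lines mark 2-fold, the numbers give expressed genes of those listed, and PS, PE and PC stand for phosphatidylserine, phosphatidylethanolamine and phosphatidylcholine. Points are spread vertically only for legibility, the ABC lipid transporters lie lowest (median -0.69), and the point past 2-fold is Chpt1 (1.08).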

How the data were processed

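RNA-seq of round spermatids from C57BL/6 mice was available as 1 library per genotype, wild type and Epc-dKO, grouped by the genotype label. Per the labels' protocols, libraries were directional and made from total RNA with 15 PCR cycles. The authors deposited FPKM per gene in a single table; the submitters' processing notes name Cufflinks 2.2.1 and mm9, and the aligner, annotation, strand setting and scaling were not given in the sources used here. A row without a gene was left out, which left 23234 genes, none with a duplicated symbol.

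A pseudocount of 1, a minimum mean FPKM of 1 and a 2-fold rule were used. With 1 library per genotype no test was made, and the calculation of the rule was tested on simulated data with known changes. Fragment numbers come from the steps of low values and GENCODE M21 transcript lengths, cover counting error only, and cannot correct for PCR duplicates. Promoters are from RefSeq (GRCm38.p6); no mm9 coordinate is given. An item of each of the lists of other P4-ATPases and other P-type ATPases is not reported here and is left out of those lists' counts and sums. The members and lists were chosen with earlier results of these data known. The text names all members and other P4-ATPases, and of each other pathway list the 2 most abundant, the 2 most changed and all genes past 2-fold. For each of the 2 most abundant members it names the 3 nearest genes, leaving out small RNA, predicted and uncharacterised symbols. The tools were Biopython 1.88, Matplotlib 3.10.9, pandas 2.3.3, NumPy 2.4.6 and Python 3.11.15.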

Additional observations from a re-analysis of the deposited data

How the results depend on the processing

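The alternatives were pseudocounts of 0.1 and 0.5, no minimum FPKM or a higher minimum of 5, 5 rescalings of the libraries and a 4-fold rule. Over the 10 genes and 7 pseudocounts and rescalings, 69 of 70 log2 ratios stayed on their side of 2-fold. The exception was Atp8b2 at -1.03 with a pseudocount of 0.1, which made 1 member counted lower. On the TPM scale Atp8b2 stood at -0.996, just short of the rule, so its call lies at the threshold where the pseudocount weighs less. The sign held in 66 of 70, and the other 4 were values of Tmem30c, whose range was -0.02 to 0.06. Rescaling moved the median of all expressed genes by less than 0.1. The members' median was -0.0084 without a minimum, which adds the 4 low genes, 0.32 at the higher minimum and -0.0125 on the TPM scale, where 7 members pass the minimum. All expressed genes counted higher and lower were 433 and 652 with a pseudocount of 0.1, 545 and 1054 on the TPM scale, 166 and 105 at the higher minimum of 5 and 76 and 59 under the 4-fold rule; 364 were lower with a pseudocount of 0.5.

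ABC lipid transporters had a median of -0.99 with 2 counted lower at a pseudocount of 0.1, -0.83 with 1 lower at 0.5, -0.30 without a minimum, and 2 lower on the TPM scale. Phosphatidylserine recognition genes stood at -0.54 with 1 lower at 0.1, had 1 lower at 0.5, stood at -0.11 without a minimum and at 0.48 with the 1 gene left at the higher minimum, and had 1 higher and 1 lower on the TPM scale. Scramblases stood at 0.18 at the higher minimum. Other P-type ATPases had 1 lower at 0.1 and a median of 0.12 at the higher minimum, and the 4-fold rule left 0 synthesis genes higher. The ratio of P4-ATPase to Tmem30 FPKM was 72.2 and 48.0 with the Atp9, Atp10 and Atp11 genes left out and 11.6 and 8.33 without Atp8b3, for wild type and Epc-dKO. The pseudocounts of 0.1 and 0.5 left the same 10438 genes past the minimum, and on the TPM scale 15151 passed it. That scale raises all values while the pseudocount and the minimum stay at 1, so both weigh less there. Any further cause of these shifts was not tested. No paired analysis was possible because there is only 1 library of each genotype, and for the same reason none could be left out.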

Other observations

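Other P-type ATPases, which are related to the flippases and are mostly ion pumps, were set beside them as a list, of which 21 genes are reported here. Of these, 11 were expressed, 0 passed the 2-fold rule and the median log2 ratio was -0.03. Atp1a4, the sodium pump subunit of sperm, had an FPKM of 84.2 in wild type and 116 in the Epc-dKO library (0.46), and Atp2a2, the calcium pump of the endoplasmic reticulum, had 34.7 and 37.8 (0.12). Atp13a2, a lysosomal polyamine transporter gene, had 4.76 and 2.69 (-0.64), and Atp2b1, a calcium pump of the plasma membrane, had 2.15 and 1.02 (-0.64). The highest of these 21 pump genes lay far below Atp8b3, at 921 in wild type and 821 in Epc-dKO.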
